A study of Mus musculus with 12 samples.

Results

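The 10 genes described here encode platelet-derived growth factors (PDGF) and fibroblast growth factors (FGF) and their receptors. They are the PDGF ligands Pdgfa, Pdgfb and Pdgfc, the PDGF receptors Pdgfra and Pdgfrb, the FGF ligands Fgf1, Fgf2 and Fgf10 and the FGF receptors Fgfr1 and Fgfr3. They were taken by symbol from the 14851 genes listed, with no threshold on a measured value, though the set was chosen with earlier results of these data known. RNA-sequencing was performed on 562 cells, a spontaneously immortalized vascular tumor line cultured from skin tumors. The mouse carried Tsc1 f/f;Scl-Cre, in which Scl-Cre removes the mTORC1 inhibitor Tsc1 from endothelial cells (ECs) once tamoxifen is given. All groups, control included, derive from this 1 line, so they share its C57BL/6 strain and its Tsc1 deletion. Control cells, labelled wildtype, were set against cells with a KO of Fip200, of Atg5 or of Atg7, with 3 libraries in each of the 4 groups. Fip200, whose gene is Rb1cc1, starts autophagosome formation, whereas Atg5 and Atg7 act in the conjugation step that lipidates LC3. The KO cells were made by lentiviral CRISPR-Cas9 with puromycin selection. The study names a guide against EGFP as its control and, among the 3 genes targeted here, guides from more than 1 site for Fip200 only. The sources used here do not tie a library to a guide or a clone. The replicates are described as independent RNA samples, so the p-values measure the spread between these samples, which may be partly technical.

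PDGF ligands are secreted dimers that bind a pair of receptor tyrosine kinases, and in vessels ECs classically release PDGF-B to recruit pericytes that carry PDGFRβ. FGF ligands bind FGF receptors together with heparan sulfate, and the activated receptors signal through the adaptor FRS2 to RAS and MAPK and to PI3K. FGFR1 is the main FGF receptor of ECs. All 12 cultures grew in medium with serum, heparin and an endothelial growth supplement, so ligand was also supplied from outside the cells. The comparisons below show how far the RNA of these growth factors and receptors differed once an autophagy gene was targeted.

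Between 17266926 and 23629730 reads per library fell on the listed genes. Levels are given as RPKM, that is reads scaled to gene length and library total. The label of tissue is lymphatic ECs, and all 11 EC markers were listed, with Pecam1 between 265 and 539 RPKM. Among the lymphatic markers Lyve1 lay between 60.6 and 393 RPKM, Pdpn between 51.5 and 336 RPKM and Flt4 between 31.7 and 101 RPKM. Reln was lower, at 0.00775 to 4.39 RPKM. Prox1, which sets lymphatic identity, was at most 5.79 RPKM and only 0.0366 RPKM in 1 library. Of the 3 targeted genes 1 was called lower in its own KO, Atg7, where the log2 difference was −1.97 ± 0.37 (SE, limma adjusted p = 0.0216). In Fip200 KO cells Rb1cc1 differed by −0.74 ± 0.40 (limma adjusted p = 0.404) and in Atg5 KO cells Atg5 differed by 0.00 ± 0.23 (limma adjusted p = 0.994). Atg7 RNA was also at 9.94 to 11.9 RPKM in Atg5 KO against 18.4 to 25.0 RPKM in control (log2 difference −0.95, limma adjusted p = 0.00830, under the fold required) and at 8.23 RPKM in Fip200 KO replicate 3, so a lower level was not seen in Atg7 KO alone. Small CRISPR lesions need not lower RNA, so these levels are a weak check of the labels. The control libraries were not alike. Control replicate 2 held Dcn at 56.9 and Col3a1 at 143 RPKM, both markers of fibroblasts, against 0.125 and 2.82 RPKM in control replicate 1. Fap was likewise highest in control replicate 2, whereas Thy1 and Col1a2 were highest in control replicate 1, Thy1 being at 17.7, 11.2 and 2.36 RPKM and Col1a2 at 0.0202, 0.0162 and 0.00969 RPKM in control replicates 1 to 3. In control replicate 2 the summed EC markers came to 1315 RPKM, against 3285 and 2225 RPKM in control replicates 1 and 3. In bulk RNA a lower share of cells that express a gene and less RNA per cell cannot be told apart. The library labels carry the names FY (control replicate 1 and Fip200 KO), JG (control replicates 2 and 3 and Atg5 KO replicates 1 and 2) or Yang (Atg5 KO replicate 3 and Atg7 KO), without saying what the names mark. The same 3 control libraries serve in all 3 comparisons, so a high or low control library moves all of them together.

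**Figure D1:**
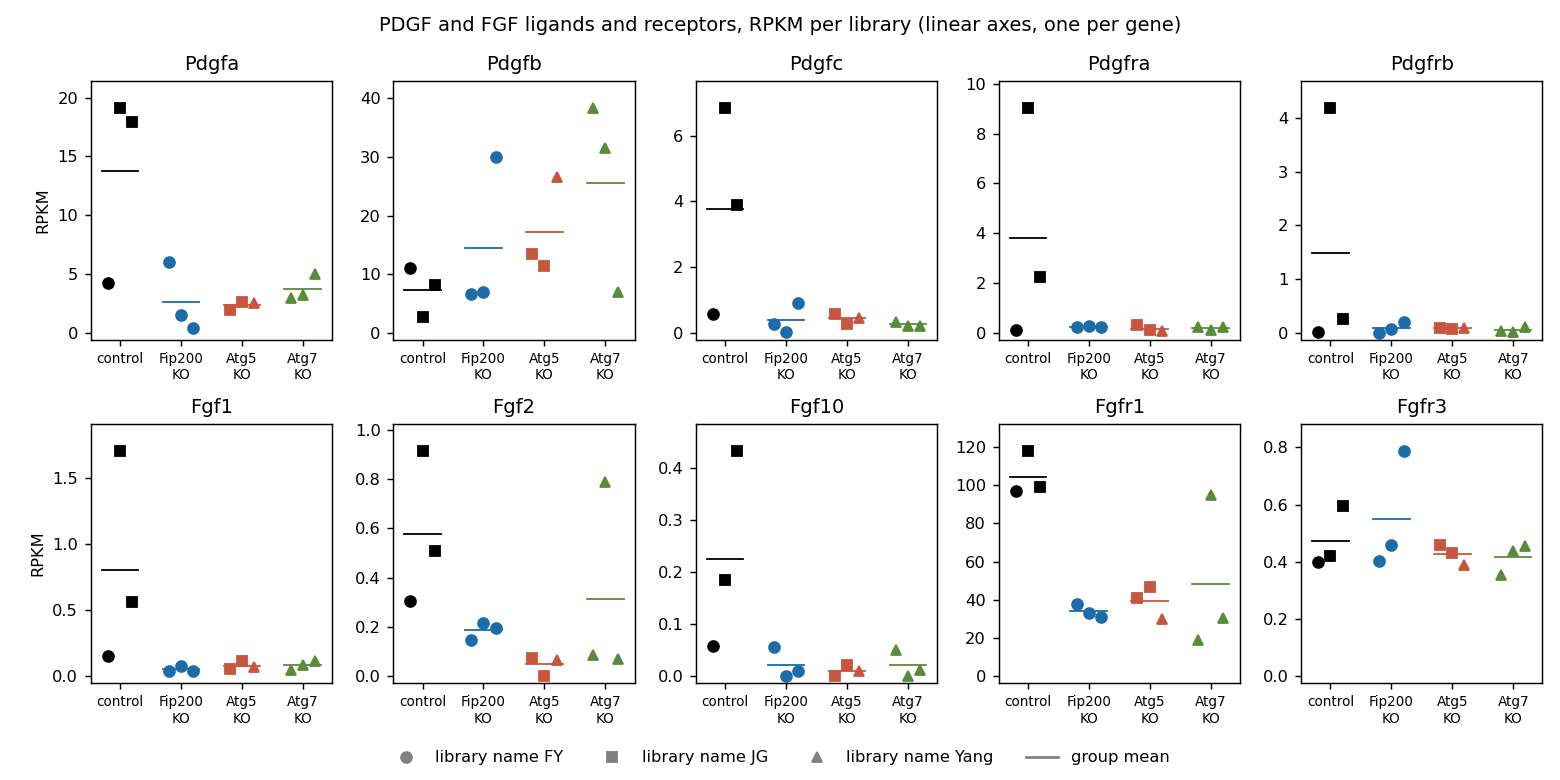
RPKM of each gene in every library on a linear axis of its own, by group, with the symbol showing the name in the library label and the line the group mean (n = 3). All 3 control libraries lie above 8 of 9 KO libraries for Fgfr1 by a wide gap, whereas for Pdgfra, Pdgfrb and Fgf1 the control mean is carried by control replicate 2.

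Of the PDGF ligands, Pdgfa and Pdgfc were called lower in Atg5 and Atg7 KO and Pdgfb passed in no KO. Pdgfa, the A chain that signals mainly to PDGFRα, was the PDGF ligand with the highest mean in control cells, at 13.8 ± 8.27 RPKM (SD, n = 3). Its levels were 4.25, 19.1 and 17.9 RPKM in control replicates 1 to 3, against 6.05, 1.51 and 0.403 RPKM for Fip200 KO, 1.93, 2.62 and 2.50 RPKM for Atg5 KO, then 2.96, 3.18 and 5.01 RPKM for Atg7 KO. Control replicates 2 and 3 stood above all 9 KO libraries, while control replicate 1 lay within the KO range. Pdgfa fell in Atg5 KO by 2.08 on the log2 scale (4.22-fold, SE 0.53, limma adjusted p = 0.0286), with every KO library below every control library. In Atg7 KO it fell by 1.54 (2.91-fold, SE 0.54, limma adjusted p = 0.0983), close to the threshold of 0.1, and 1 KO library overlapped the control range. That call was lost without control replicate 2 (limma adjusted p = 0.250) or control replicate 3 (0.269), without any 1 of the Atg7 KO libraries (0.136 to 0.231), with voom (0.141), with no filter (0.135) and when all 12 libraries were fitted together (0.149). In Fip200 KO the log2 difference of −2.39 ± 0.82 did not pass (limma adjusted p = 0.224), the 3 KO libraries being spread from 0.403 to 6.05 RPKM. All log2 differences here are of RPKM plus 0.5, which understates the change of low genes.

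Pdgfb, the B chain that ECs present to pericytes, was not called in any KO. It was measured at 11.1, 2.75 and 8.15 RPKM in control, 6.57, 6.99 and 29.9 RPKM after Fip200 KO, 13.4, 11.4 and 26.6 RPKM after Atg5 KO, and 38.4, 31.5 and 7.05 RPKM after Atg7 KO. Each KO mean was above the control mean of 7.34 ± 4.24 RPKM, and in Atg5 KO all 3 libraries were above all control libraries. The differences were 0.77 ± 0.68, 1.26 ± 0.52 and 1.61 ± 0.71 on the log2 scale in Fip200, Atg5 and Atg7 KO, and none passed (limma adjusted p = 0.598, 0.106 and 0.156). The Atg5 KO value passed without control replicate 1 (limma adjusted p = 0.0594) and with a voom fit of the reads (limma adjusted p = 0.0996), and the Atg7 KO value passed without replicate 3, the 1 library at the control level (limma adjusted p = 0.0570). Control replicate 2, lowest in EC markers, also had the lowest Pdgfb of the 12 libraries. Of the 11 EC markers 5 were called higher in Atg5 KO, with log2 differences of 1.28 for Cdh5, 1.35 for Kdr, 1.16 for Egfl7, 1.14 for Esam and 4.12 for Cldn5, and 0 in Fip200 and Atg7 KO. Over all genes 4.31% were called higher in Atg5 KO, 0.347% in Fip200 KO and 3.29% in Atg7 KO. The part of these markers in the Pdgfb values was not tested.

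Pdgfc, a latent ligand that needs proteolytic cleavage before it binds PDGFRα, was low outside 2 control libraries. Its levels were 0.586, 6.84 and 3.88 RPKM in control, 0.259, 0.0141 and 0.908 RPKM with Fip200 KO, 0.575, 0.276 and 0.461 RPKM with Atg5 KO, and 0.330, 0.219 and 0.209 RPKM with Atg7 KO. Control replicate 1, with 39 reads, was only just above Atg5 KO replicate 1, which had the same number of reads in a library of similar depth. Pdgfc fell in Atg5 KO by 1.81 (SE 0.65, limma adjusted p = 0.0760) and in Atg7 KO by 2.12 (SE 0.64, limma adjusted p = 0.0677) on the log2 scale. The Fip200 KO difference, 3.99-fold lower with an SE of 0.72 on the log2 scale, did not pass (limma adjusted p = 0.249). The study itself lists Pdgfc, Pdgfra, Fgf1 and Fgf10 among the genes lower in all 3 KO, a list drawn from these same libraries, so their direction here is not independent evidence. The Atg5 KO call for Pdgfc was lost without control replicate 2 (limma adjusted p = 0.172), without control replicate 3 (0.193) or without any 1 KO library (0.144 to 0.174), and with voom (0.127). The Atg7 KO call was lost without Atg7 KO replicate 1 (limma adjusted p = 0.156) or replicate 3 (0.144) and, by a narrow margin, with voom. In that comparison Pdgfc reached 0.5 RPKM in the 3 control libraries alone, so it passed the filter only through the group where it was high, and it could not be tested once a control library was left out.

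The promoters of Pdgfc and Pdgfra are shown because this ligand and its receptor were high in the same 2 control libraries. The sequences are the 250 bases upstream of the start in RefSeq on GRCm38.p6, 5′ to 3′ on the gene's strand. Matches to the GC box (GGGCGG or its complement CCGCCC) would stand in capitals, and neither window held one. RefSeq promoters were given for 6 of the 10 genes. Pdgfc lies on the plus strand at chr3:81036166-81036415 and Pdgfra on the plus strand at chr5:75152001-75152250.
Pdgfc: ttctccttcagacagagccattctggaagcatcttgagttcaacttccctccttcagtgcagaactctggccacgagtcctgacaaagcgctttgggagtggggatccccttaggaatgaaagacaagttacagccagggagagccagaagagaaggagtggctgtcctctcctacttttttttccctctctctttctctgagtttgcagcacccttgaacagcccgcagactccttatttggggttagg
Pdgfra: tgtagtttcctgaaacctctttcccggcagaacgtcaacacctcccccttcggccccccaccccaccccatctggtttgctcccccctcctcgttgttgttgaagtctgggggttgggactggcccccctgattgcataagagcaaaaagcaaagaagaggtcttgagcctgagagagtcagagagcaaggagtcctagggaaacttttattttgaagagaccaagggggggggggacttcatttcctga
G and C made up 50.8% of the Pdgfc and 54.4% of the Pdgfra window, against a median of 52.4% over all promoters. Pdgfa, high in the same libraries, has 2 RefSeq starts, at 66.4% and 72.4% G and C with 1 and 2 matches to the GC box. Its windows, at chr5:138994282-138994531 and chr5:138994945-138995194 on the minus strand, overlap transcripts that GENCODE starts further upstream and are not printed. Of 32851 mouse promoters, 32.7% held the GC box on either strand, 6.75% held TGANTCA (N being any base) and 12.4% held TATAAA or its complement. The last 2 motifs were absent from all 4 windows. A match is a description of letters and no evidence that a factor binds.

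Pdgfra was nearly silent outside control replicates 2 and 3, and Pdgfrb outside control replicate 2. Pdgfra, the receptor that binds the A, B and C chains and marks mesenchymal cells, was at 0.113, 9.02 and 2.26 RPKM in control replicates 1 to 3, from 19, 1899 and 397 reads. In KO cells it ranged from 0.0571 to 0.320 RPKM, or 11 to 55 reads. Control replicate 1 was thus below 8 of the 9 KO libraries, and replicate 2 alone held 79.2% of the summed control level. The gene passed the filter (0.5 RPKM or more in at least 3 libraries) in no comparison. Its log2 differences were −1.75, −1.94 and −1.87 in Fip200, Atg5 and Atg7 KO, with overlapping groups (exact two-sided permutation p = 0.4, 0.3 and 0.4, where the smallest possible is 0.1).

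Pdgfrb, the receptor of pericytes and fibroblasts, was rarer still. Control libraries held 2, 557 and 29 reads, or 0.0187, 4.19 and 0.261 RPKM. The KO libraries held between 0 and 24 reads, at most 0.194 RPKM. Replicate 2 carried 93.7% of the summed control level, so the control mean of 1.49 ± 2.34 RPKM describes that library rather than the group. The groups overlapped in every comparison (exact two-sided permutation p = 0.4, 0.4 and 0.3). Among the other mural markers Notch3, at 0.634 and 0.147 RPKM, and Des, at 0.179 and 0.0660 RPKM, were also highest in control replicates 2 and 3, with at most 0.0172 and 0.0302 RPKM elsewhere. Rgs5, typical of pericytes, had at most 0.0108 RPKM in any library and Cspg4 at most 0.0692 RPKM. The 9 mural markers summed to between 1.88 and 4.87 RPKM in control and 3.12 to 64.4 RPKM in KO libraries, most of the latter Tagln and Acta2. The 8 listed fibroblast markers summed to 20.8, 213 and 41.1 RPKM in control and to between 2.43 and 349 RPKM in KO libraries, where Thy1 made up most of the higher sums. Lum was not listed, Dpt and Postn were at 0 in all control libraries and Col1a1 was at most 0.476 RPKM anywhere. Dcn, at 56.9 and 15.2 RPKM, and Fap, at 2.05 and 0.318 RPKM, were highest in control replicates 2 and 3, as the 2 receptors were. Col3a1 was highest in control replicate 2, but Fip200 KO replicate 2 (34.3 RPKM) and Atg5 KO replicate 3 (31.3 RPKM) lay above control replicate 3 (23.1 RPKM). Of the mural and fibroblast markers Acta2, Tagln and Thy1 were called higher in Atg5 KO, where 4.31% of all genes were. Tagln, Thy1 and Col1a2 were called higher in Atg7 KO, where 3.29% of all genes were. None of these markers was called lower in any single KO. The part of mural cells or fibroblasts in the receptor levels was not tested.

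**Figure D2:**
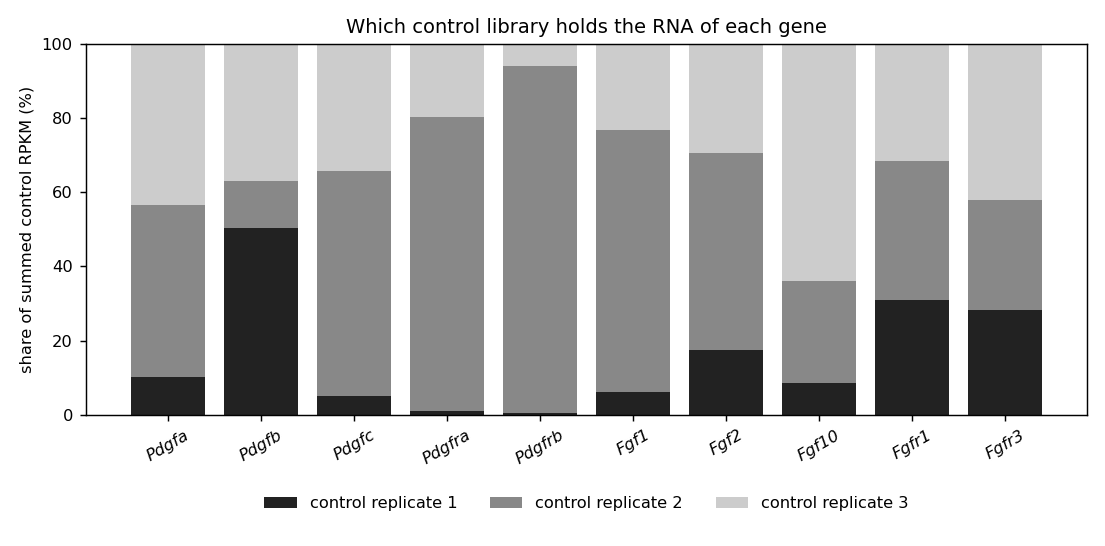
Share of the summed control RPKM that each control library contributes, per gene, in percent. Control replicate 2 holds 93.7% of Pdgfrb, 79.2% of Pdgfra and 70.7% of Fgf1, but 37.6% of Fgfr1, where equal libraries would each hold close to the same share.

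FGF ligands were at trace levels in every group. Fgf1, which lacks a signal peptide and binds all FGF receptors, was at 0.148, 1.70 and 0.557 RPKM in control (11, 157 and 43 reads). In KO libraries it had 3 to 9 reads, or 0.0350 to 0.113 RPKM. All 9 KO libraries lay below control replicate 1, the lowest control, so the groups were separate each time (p = 0.1 by exact two-sided permutation in each KO). Summed over the group, control had 17.5 times the level of Fip200 KO (95% interval 9.78 to 34.3, from 211 and 12 reads), 11.0 times that of Atg5 KO (6.84 to 18.6) and 10.5 times that of Atg7 KO (6.49 to 18.1). These intervals cover counting error only and not the spread between libraries, and they rest on the pooled control, of which replicate 2 is 70.7%.

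Fgf10, a ligand that mesenchyme sends to epithelium, showed the same separation on fewer reads. It was found with 5, 20 and 39 reads in control, or 0.0577, 0.185 and 0.432 RPKM, and with 0 to 5 reads in KO libraries. The lowest control library and the highest KO library, Fip200 KO replicate 1 of the same library name, had 5 reads each, so their order is set by depth and not by a difference in reads. Control over Atg5 KO, from 64 and 3 reads, gave a ratio of 21.0 with a counting interval of 6.89 to 105, while the ratio to Fip200 KO was 10.6 (4.61 to 29.9) and that to Atg7 KO was 11.5 (4.67 to 36.6). Here control replicate 3, not replicate 2, was the highest.

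Fgf2, the classic endothelial mitogen, gave 4, 15 and 7 reads in control (0.303, 0.913 and 0.510 RPKM). The KO libraries held 2, 3 and 3 reads for Fip200, 1, 0 and 1 for Atg5, and 1, 10 and 1 for Atg7. Atg7 KO replicate 2 alone, at 0.789 RPKM, reached the control range. The ratio of control to Atg5 KO was 12.8 (counting interval 3.21 to 112) on 2 KO reads, that to Fip200 KO was 3.23 (1.42 to 8.24) and that to Atg7 KO was 1.94 (0.946 to 4.23). Under the filter Fgf2 was tested only in Atg7 KO, where it differed by −0.47 ± 0.39 (limma adjusted p = 0.429). With no filter the Atg5 KO difference was −0.94 (limma adjusted p = 0.0259), under the fold required, and a voom fit with no filter called it lower (−2.97, limma adjusted p = 0.0317), while the Fip200 KO difference did not pass in either (0.266 and 0.356).

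Fgfr1 had the highest level of the 10 genes in every control library, whereas in Atg7 KO replicate 1 Pdgfb (38.4 RPKM) was above it (18.8 RPKM). The receptor stood at 97.1, 118 and 98.9 RPKM in control (105 ± 11.5 RPKM, SD, n = 3, on 9407 to 14235 reads per library). It was at 37.8, 33.1 and 31.0 RPKM with Fip200 KO, 40.8, 46.6 and 29.8 RPKM with Atg5 KO, and 18.8, 94.9 and 30.3 RPKM with Atg7 KO. All 9 KO libraries lay below all 3 control libraries, but Atg7 KO replicate 2 missed the lowest control library only narrowly. That library had the lowest Atg7 level of the 12, at 2.64 RPKM, so the targeted gene does not set it apart from its label. Fgfr1 fell by 1.61 in Fip200 KO (3.05-fold, SE 0.18, limma adjusted p = 0.0266) and by 1.43 in Atg5 KO (2.69-fold, SE 0.18, limma adjusted p = 0.00497) on the log2 scale. In Atg7 KO the difference of −1.45 ± 0.53 just missed the threshold (limma adjusted p = 0.106), and without replicate 2 it was −2.10 (limma adjusted p = 0.00863). It also passed when all 12 libraries were fitted together (limma adjusted p = 0.0589). The Fip200 KO call was lost without control replicate 2 (limma adjusted p = 0.167) or control replicate 3 (0.250), though the difference stayed at −1.52 and −1.65. Those fits called 0 of 11583 and 0 of 11604 genes, so the loss was not particular to Fgfr1.

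Fgfr3, a receptor better known from cartilage and epithelium, was low in all groups. It ranged from 0.400 to 0.597 RPKM in control and from 0.354 to 0.787 RPKM in KO cells, on 29 to 82 reads per library. The log2 differences were 0.10, −0.06 and −0.08 in Fip200, Atg5 and Atg7 KO, with overlapping groups (exact two-sided permutation p = 0.6, 0.8 and 0.6). Whether a modest change would be detectable at this depth was not tested.

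**Figure D3:**
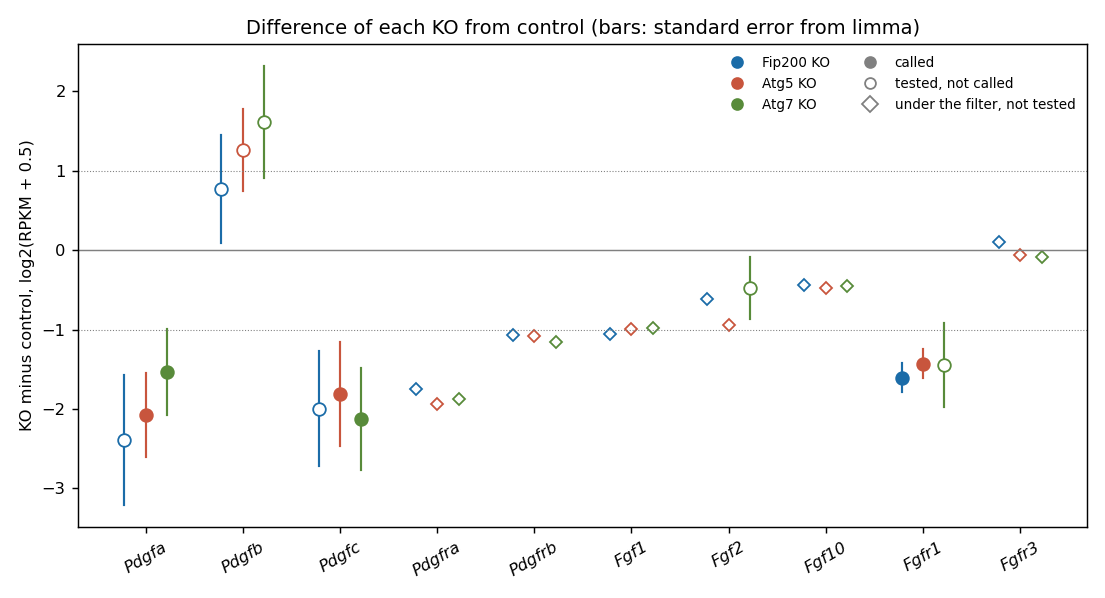
Difference of each KO from control in log2 of RPKM plus 0.5 for the 10 genes, with the standard error from limma where the gene was tested. Filled circles passed an adjusted p of 0.1 and a log2 difference of 1 in size; open circles were tested and did not pass; diamonds were under the filter. Fgfr1, with differences from −1.61 to −1.43, has the narrowest errors in Fip200 and Atg5 KO, and Pdgfb is the only gene above 0 by more than 0.5 in every KO.

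Counted together, 1 of 4 members tested was called lower in Fip200 KO (Fgfr1), where 1.64% of all 11803 genes tested were. In Atg5 KO 3 of 4 were called lower (Pdgfa, Pdgfc and Fgfr1) against 6.94% of 11833 genes, and in Atg7 KO 2 of 5 (Pdgfa and Pdgfc) against 6.81% of 11784. No member was called higher, where 0.347%, 4.31% and 3.29% of all genes were. Pdgfc in Atg7 KO met the filter through control libraries alone, so nothing is read from these counts about the 10 genes as a group. Every KO library lay below every control library for 4 of the 10 genes in Fip200 KO (Fgf1, Fgf2, Fgf10 and Fgfr1), for 6 in Atg5 KO (those 4, Pdgfa and Pdgfc) and for 4 in Atg7 KO (Pdgfc, Fgf1, Fgf10 and Fgfr1). The 10 genes include some under the filter, and the share of all genes with a read that had that order was 11.8%, 20.5% and 19.1%, against 12.4%, 22% and 20.4% of the tested genes alone.

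The mean of the 3 KO groups was also set against control in a fit of all 12 libraries. Fgfr1, Pdgfc and Pdgfa were called lower, Fgfr1 at −1.49 ± 0.36 on the log2 scale (SE, limma adjusted p = 0.0205) and Pdgfc at −1.98 ± 0.48 (0.0203). Pdgfa was 4.01-fold lower (SE 0.54 on the log2 scale, limma adjusted p = 0.0308). Fgf2 had a difference of −0.67 ± 0.27 (limma adjusted p = 0.0980), under the fold required, and Pdgfb one of 1.21 ± 0.60 (0.171). The Fgf2 value depends on the pseudocount, and it was called lower with a pseudocount of 0.1 (−1.45, limma adjusted p = 0.0818) and with voom (−1.91, limma adjusted p = 0.0523). Thus 3 of 5 members tested were called lower and 0 higher, against 5.86% and 2.37% of 12233 genes. With no filter, 5 of 10 were called lower, Pdgfra (limma adjusted p = 0.0591) and Fgf1 (0.0329) joining, against 5.06% of all genes. A voom fit of the reads with no filter called 7 of 10, with Fgf2 and Fgf10 in addition, against 8.36%. The study lists Pdgfc, Pdgfra, Fgf1 and Fgf10 as lower in all 3 KO from these same libraries. The runs without a filter were chosen after seeing the data. Nothing is therefore read from these counts about the 10 genes as a group. The counts also depended on control replicates 2 and 3. Without replicate 3 only Fgfr1 was called under the filter, beside 427 of 12127 genes called lower. Without replicate 2, 0 members were called with or without the filter, where 393 of 12126 and 432 of 14823 genes were called lower. The voom fit with no filter then called only Fgf1 and Fgf10, beside 702 of 14823 genes. With all libraries these fits called 717, 751 and 1240 genes lower.

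No member passed a test between KO groups. The tested members had adjusted p-values of at least 0.806 for Atg5 against Fip200 KO, at least 0.801 for Atg7 against Fip200 KO and 1.00 for Atg7 against Atg5 KO. Across all 12233 genes, 0% were called in each of these contrasts, with 927, 916 and 562 genes at an unadjusted p under 0.05 by limma, and voom also called 0 in each. The zeros of both contrasts with Fip200 KO depended on its replicate 3, without which 135 genes were called lower and 165 higher for Atg5 against Fip200 KO and 203 and 199 for Atg7 against Fip200 KO, with no member among them. The fit left wide margins, since for Fgfr1 the differences between KO groups of 0.18, 0.16 and −0.02 each had an SE of 0.44, and for Pdgfb those of 0.49, 0.85 and 0.35 had an SE of 0.73. The absence of a call therefore does not show that the KO cells had the same levels.

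Within a library name the picture split by gene. Among FY libraries the 3 Fip200 KO libraries can be set only against control replicate 1, and there Fgfr1 differed by −1.51, all 3 KO libraries being lower. Pdgfa differed by −1.06 with 2 of 3 lower and Pdgfc by −0.41 with 2 of 3 lower. Pdgfra and Pdgfrb went the other way, at 0.29 and 0.18, and with 1 control library limma called 0 of 11335 genes (250 at an unadjusted p under 0.05). Among JG libraries, with 2 Atg5 KO against control replicates 2 and 3, the differences were −1.30 for Fgfr1, −2.79 for Pdgfa and −2.63 for Pdgfc, each called (limma adjusted p = 0.0101, 0.00551 and 0.0115). These 2 Atg5 KO libraries were far more alike than any other replicate pair (chi-square per degree of freedom 8.19 against 48.5 or more). How well these p-values reflect the spread between independent samples is therefore not known. Pdgfra and Pdgfrb differed within JG by −2.85 and −1.70 on the log2 scale and Fgf1 by −1.39, all without overlap. Atg7 KO shares no library name with a control, so its KO and its name cannot be told apart directly. Fgfr1 differed by like amounts in both names, but with the library name as a term in a fit of all libraries its call was lost in Fip200 KO (limma adjusted p = 0.696) and in Atg5 KO (0.239).

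**Figure D4:**
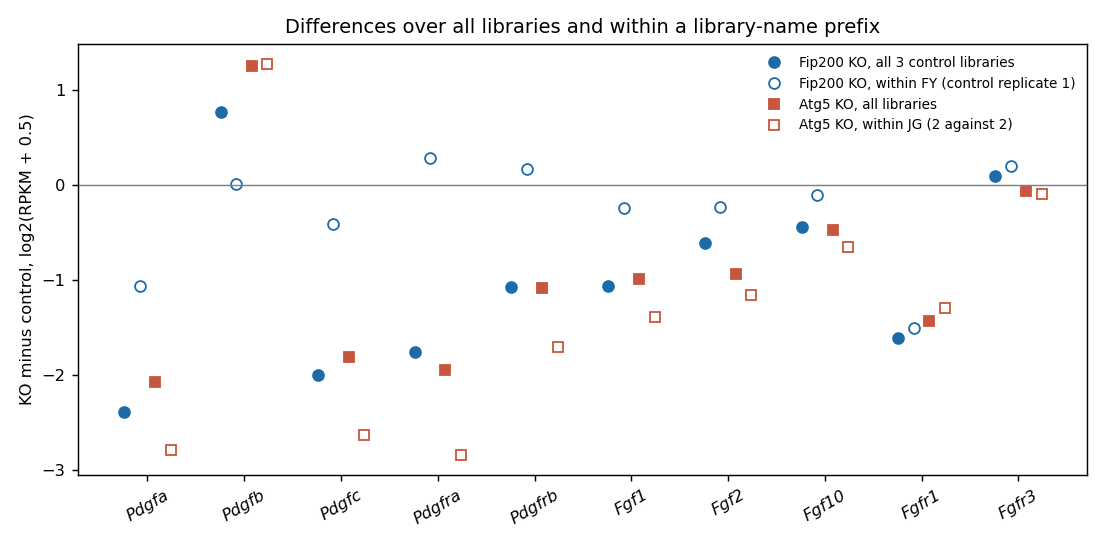
Log2 difference of KO from control over all libraries (filled) and within a library name (open) for Fip200 KO (circles, control replicate 1 only) and Atg5 KO (squares, control replicates 2 and 3). Fgfr1 differs by −1.51 in Fip200 KO within FY and by −1.30 in Atg5 KO within JG, while Pdgfra and Pdgfrb are above 0 in Fip200 KO within FY and well below 0 in Atg5 KO within JG.

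Of 28 other PDGF and FGF family genes, 14 were listed and 4 or 5 could be tested per comparison, of which 1, 2 and 2 were called lower in Fip200, Atg5 and Atg7 KO (1.64%, 6.94% and 6.81% of all genes) and 1 higher, in Atg5 KO (4.31% of all genes). Pdgfrl, a secreted protein that resembles a PDGF receptor without its kinase, was at 4.37, 8.47 and 5.61 RPKM in control and at most 1.52 RPKM in the 9 KO libraries. It fell in every KO, with log2 differences of −3.22 (SE 0.37), −2.36 (SE 0.56) and −2.99 (SE 0.39) in Fip200, Atg5 and Atg7 KO (limma adjusted p = 0.0271, 0.0231 and 0.0103), and no KO library reached the control range. Its Fip200 KO call was lost without control replicate 2 (limma adjusted p = 0.167) or control replicate 3 (0.248), though the difference stayed at −2.98 and −3.25. In those fits 0 genes were called. Fgfrl1, an FGF receptor without a kinase domain, fell in Atg5 KO (−2.01 on the log2 scale, SE 0.47, limma adjusted p = 0.0219) and in Atg7 KO (−1.93, SE 0.47, limma adjusted p = 0.0406), the latter lost without control replicate 3 (limma adjusted p = 0.125). Its control libraries ran from 3.16 to 14.4 RPKM and Fip200 KO libraries from 1.35 to 5.26 RPKM, where it did not pass (limma adjusted p = 0.405). Pdgfd, a ligand of PDGFRβ, rose in Atg5 KO from 0.798 ± 0.887 to 2.09 ± 0.144 RPKM (SD, n = 3, limma adjusted p = 0.0738), and no KO library there lay within the control range of 0.236 to 1.82 RPKM. That call was lost without control replicate 2 (limma adjusted p = 0.175) or control replicate 3 (0.194).

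The relay from receptor to RAS and MAPK was mostly level. All 23 genes of the list were tested, and 1, 1 and 2 were called lower in Fip200, Atg5 and Atg7 KO, where 1.64%, 6.94% and 6.81% of all genes were, and none higher, with list medians of 0.05, 0.09 and 0.01 on the log2 scale beside 0.02, 0.06 and −0.01 over all genes. The gene called in every KO was Gab1, a docking protein that links receptors to PI3K and SHP2. It stood between 4.195 and 8.51 RPKM in control and between 0.00631 and 1.27 RPKM in KO libraries. Its log2 differences were −2.81 (SE 0.42), −2.44 (SE 0.45) and −2.55 (SE 0.43) in Fip200, Atg5 and Atg7 KO (limma adjusted p = 0.0395, 0.0119 and 0.0180). The Fip200 KO call of Gab1 was lost without control replicate 2 (limma adjusted p = 0.216) or control replicate 3 (0.306), where 0 genes were called. The Gab1 difference stayed at −2.95 and −2.51 there. The 2 most abundant members, Mapk3 (ERK1) at 115 ± 9.01 RPKM and Shc1 at 70.0 ± 8.45 RPKM in control, did not pass in any KO, with log2 differences from −0.36 to −0.27 and from −0.25 to 0.22.

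Genes that MAPK signaling induces did not move one way. Of 21 on the list 20 were tested. None was called in Fip200 KO, 3 were lower and 1 higher in Atg5 KO, and 2 were lower and 2 higher in Atg7 KO. Over all genes 1.64%, 6.94% and 6.81% were called lower and 0.347%, 4.31% and 3.29% higher in Fip200, Atg5 and Atg7 KO. The list medians were −0.41, −0.39 and −0.43 on the log2 scale, below the all-gene medians given above. Etv1, an ETS factor downstream of FGF signaling, was at 9.13 ± 6.96 RPKM in control, and fell in Atg5 KO (log2 difference −1.96, SE 0.53) and Atg7 KO (−2.43, SE 0.53) (limma adjusted p = 0.0337 and 0.0294). The Atg7 KO call of Etv1 was lost without control replicate 3 (limma adjusted p = 0.111). Dusp4, a nuclear MAPK phosphatase, was at 99.0, 159 and 133 RPKM in control and at most 45.4 RPKM in the Atg5 and Atg7 KO libraries, and fell in both, with log2 differences of −1.98 (SE 0.19) and −1.69 (SE 0.21) (limma adjusted p = 0.00372 and 0.00929). Dusp5, another phosphatase that ERK induces, rose by 1.08 (SE 0.42) and 1.34 (SE 0.35) in the same KO (limma adjusted p = 0.0932 and 0.0491), and without control replicate 2 neither passed (0.226 and 0.122). In Fip200 KO these 3 differed by −1.73, −1.54 and 0.07 and did not pass. Ccnd1, cyclin D1, rose in Atg7 KO by 1.95 (SE 0.26, limma adjusted p = 0.0104), also without control replicate 2 or 3 (0.0453 and 0.0659), and had log2 differences of 1.48 in Fip200 KO and 0.99 in Atg5 KO that were not called. Spry2, a feedback inhibitor of receptor signaling, had log2 differences of −0.59, −0.71 and −0.91 in Fip200, Atg5 and Atg7 KO, and in the last 2 it passed the adjusted p (limma, 0.0636 and 0.0863) but not the fold. Spry4, of the same family, had differences from −0.79 to −0.69, Dusp6 from −0.55 to 0.09, Etv5 from −0.43 to −0.37 and Etv4 from −0.12 to 0.34, and none of these was called in any KO.

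**Figure D5:**
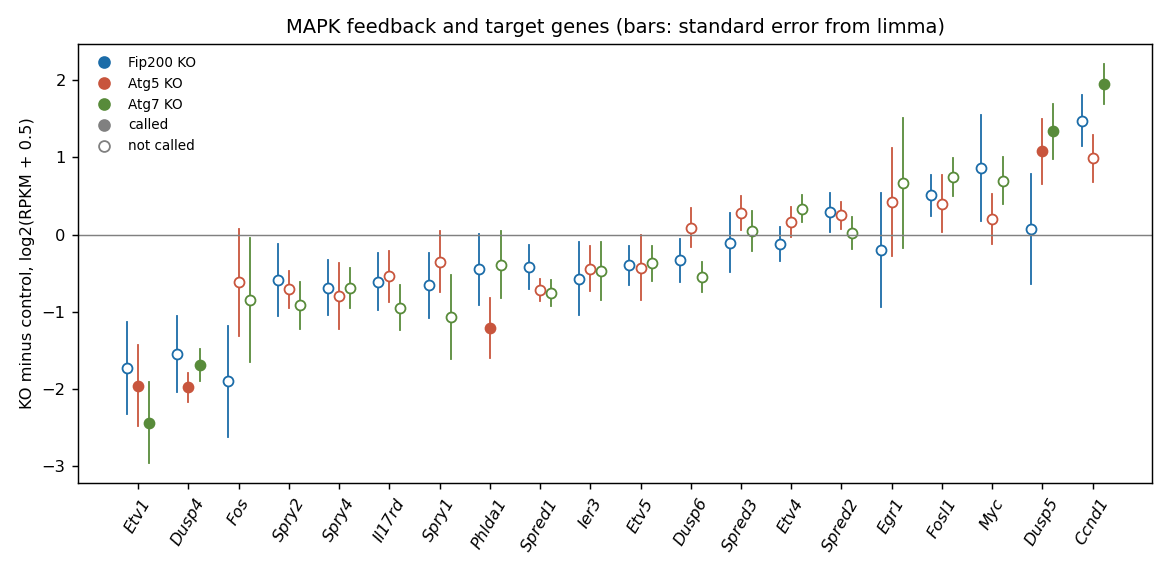
Log2 difference of each KO from control with its standard error for the 20 tested genes of the MAPK list, ordered by their mean difference. Filled points passed the test; Etv1 and Dusp4 are lowest and Ccnd1 and Dusp5 highest, with most genes between −1 and 1.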

How the data were processed

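RNA of 12 cultures of 562 cells was sequenced from directional libraries. The authors aligned the reads with TopHat2, counted them on known transcripts and tested them with edgeR (versions, genome build and annotation are not given in the sources used here). For each KO the authors deposited a table against control, with RPKM values per library (the unit was read from the values), group means as a signal on the scale of reads divided by size factors, and columns of their own fold changes and p-values, which were not used.

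Whole reads were recovered from the RPKM values and group means for 14851 of 14851 genes (within 0.1 read of a whole number). Exactly 20 genes had no reads and 1 row had no symbol. The main test was limma 3.58.1 (R 4.3.3; eBayes with trend) on log2(RPKM + 0.5), for genes at 0.5 RPKM or more in at least 3 libraries of the fit, since the deposited unit is RPKM. Each KO was fitted with control in 6 libraries, and contrasts between KO and the mean of the KO in 12. P-values were adjusted over all genes tested (Benjamini-Hochberg). A call required an adjusted p no higher than 0.1 together with a log2 difference of 1 or more in size. Single genes were also compared by exact permutation of 3 against 3 libraries. Intervals of read ratios are exact (95%) and cover counting error only. The limma script was tested on simulated data. No 2 replicates were duplicates (chi-square per degree of freedom at least 8.19). The lowest value was that of Atg5 KO replicates 1 and 2, and every other pair was at 48.5 or more.

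The 10 genes, the gene lists and the tests were chosen with earlier results of these data known. All 10 are named. From each list the genes called in the same direction in at least 2 KO comparisons are named, at most 5, filled up to 3 with the most abundant. Genes named beside them, such as Dusp6, Etv4, Etv5, Spry2, Spry4, Ccnd1 and Sulf2, were chosen after their values were seen. A likeness search was set for members called in all 3 KO, and there were 0. Alternatives were other pseudocounts, filters, scaling, a voom fit of the reads, a replicate block, the library name as a term, 1 fit of all libraries, and leaving out each library (for list genes, control replicates 2 and 3, chosen after seeing the data). Promoters came from RefSeq on GRCm38.p6, and no protein sequences were used. Python 3.11.15, scipy 1.17.1 and matplotlib 3.10.9 were used.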

Additional observations from a re-analysis of the deposited data

How the results depend on the processing

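No difference of a tested member from control changed sign under an alternative in which it could be tested. Pdgfra and Pdgfrb, under the filter, were however above 0 in Fip200 KO within FY (0.29 and 0.18). Differences between KO groups were not followed gene by gene. The counts of members called did change, as did those over all genes. Where the main fits called 193, 821 and 803 genes lower in Fip200, Atg5 and Atg7 KO, voom called 163, 940 and 940. With the library name as a term 45, 411 and 30 of 12233 were, and with all 12 libraries fitted together 450, 652 and 760. Voom with no filter called 137, 1162 and 1081 of 14793, 14799 and 14785. Without control replicate 2 or 3, 0 genes were called in Fip200 KO. In Fip200 KO the 1 member called lower (Fgfr1) became 0 with the library name as a term (all 12 libraries), 0 within FY and 3 when all 12 libraries were fitted together (Pdgfa and Pdgfc added), and between 0 and 1 with a library left out. In Atg5 KO the 3 called lower became 2 with the library name as a term (Fgfr1 lost, at −1.30 with a limma adjusted p of 0.239), 2 with voom and 2 with no filter (Pdgfc lost, with voom at 0.127), 2 with a filter at 1 RPKM and 4 with voom and no filter (Fgf2 and Fgf10 added, Pdgfc lost), and were 2 to 3 with a library left out, and the 0 called higher became 1 (Pdgfb) with voom, 1 with a replicate block and 0 to 1 with a library left out. In Atg7 KO the 2 called lower (Pdgfa and Pdgfc) became 0 with voom and 0 with the library name as a term. With voom and no filter 1 was called lower, Fgf10, and Pdgfa and Pdgfc were both lost. The count was 1 with no filter (Pdgfc) and 1 with a filter at 1 RPKM (Pdgfa), under which Pdgfc is not tested. It stayed at 2 when all 12 libraries were fitted together (Fgfr1 in place of Pdgfa) and was 0 to 2 with a library left out. The 0 called higher were 0 to 1 (Pdgfb, without Atg7 KO replicate 3). For the mean of the KO groups the 3 called lower became 1 with the library name as a term (Pdgfc), 4 with a pseudocount of 0.1 and 4 with voom (Fgf2 added), 5 with no filter and 7 with voom and no filter, and ranged from 0 to 3 with a library left out, while the 0 called higher were 0 to 1. These causes were not tested. The voom runs without a filter, and every run without a filter for the mean of the KO groups, were chosen after seeing the data.

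Same-numbered libraries deviated together in no KO beyond a correlation of 0.0767 with control (lowest −0.218), so the replicate numbers were not taken as pairs. A replicate block left Fgfr1 in Fip200 KO called (limma adjusted p = 0.0857) and, in Atg7 KO, exchanged Pdgfc (0.102) for Fgfr1 (0.0996). Depth limits Fgf2, Fgf10 and, in KO cells, Fgf1 and Pdgfrb, where single reads decide the order of libraries.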

Other observations

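Among the genes of ligand processing Plat was called lower in every KO, and Hpse in Atg5 and Atg7 KO. Of 7 genes on the list of ligand processing, which cut latent PDGF or free FGF from heparan sulfate, 6 were tested, and 1, 2 and 2 were called lower in Fip200, Atg5 and Atg7 KO, where 1.64%, 6.94% and 6.81% of all genes were, and none higher. Plat, the tissue plasminogen activator that also activates PDGF-C, was at 835, 572 and 997 RPKM in control, between 31.9 and 171 RPKM in Fip200 KO, between 34.6 and 71.4 RPKM in Atg5 KO and between 37.6 and 139 RPKM in Atg7 KO. It fell in all 3, with log2 differences of −3.09 (SE 0.61), −3.88 (SE 0.31) and −3.22 (SE 0.48) (limma adjusted p = 0.0867, 0.00305 and 0.0130). The Fip200 KO call of Plat was lost without control replicate 2 (limma adjusted p = 0.309) or control replicate 3 (0.459), where 0 genes were called. Its difference stayed at −3.31 and −2.91 there. Unlike the PDGF receptors, Plat was lowest of the control libraries in replicate 2. Hpse, the heparanase, fell in Atg5 KO (log2 difference −2.77, SE 0.75, limma adjusted p = 0.0337) and in Atg7 KO (−2.74, SE 0.80, limma adjusted p = 0.0627), with 25.2 RPKM in control replicate 2 against 3.45 and 4.59 RPKM in the other two. In Fip200 KO it differed by −1.29 (SE 0.90, limma adjusted p = 0.496), with 1 library, at 9.55 RPKM, inside the control range. The Atg7 KO call of Hpse was lost without control replicate 2 (limma adjusted p = 0.131) or control replicate 3 (0.135). Plau, the urokinase, was abundant in all groups (370 ± 72.9 RPKM in control, SD, n = 3) and did not pass in any KO, with log2 differences of 0.29, 0.40 and 0.13.

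Of 15 genes that build or edit heparan sulfate chains, 13 were tested, with list medians of −0.18, −0.32 and −0.40 on the log2 scale in Fip200, Atg5 and Atg7 KO. Of these, 0, 0 and 0 were called lower, where 1.64%, 6.94% and 6.81% of all genes were, and 1 was called higher, in Atg7 KO (Hs6st2, lost without control replicate 3, limma adjusted p = 0.165), where 3.29% of all genes were. The chain polymerases Ext1 and Ext2 stood at 51.3 ± 4.13 and 61.4 ± 19.8 RPKM in control and had log2 differences from −0.81 to −0.40 and from −0.79 to −0.47, under the fold required. Sulf2, which removes sulfate from the chains outside the cell, had the widest differences of the list, at −3.29 (SE 1.02), −2.52 (SE 1.05) and −2.44 (SE 1.06), and did not pass (limma adjusted p = 0.194, 0.112 and 0.155). It was at 1.96, 43.3 and 17.8 RPKM in control and between 0.152 and 5.54 RPKM in KO libraries, and it was called lower for the mean of the 3 KO groups. Ndst1, which starts sulfation, had differences from −0.06 to 0.39 and did not pass.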
